A study of Homo sapiens with 42 samples.

Results

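Control cells of OCI-Ly3 were compared with control cells of TMD8. Both are established human lines of the activated B cell-like subtype of diffuse large B-cell lymphoma. The members are the 18 control libraries of the 42 in the series, 9 of each line, taken by their labels and not by any measured value. They fall into 3 settings with 3 libraries of each line in each. In the first, OCI-Ly3 or TMD8 cells were kept in the solvent DMSO for 8 h, in the second they were kept in DMSO for 24 h, and in the third they were infected with a lentivirus that carries a non-targeting shRNA hairpin. The other 24 libraries came from cells of the same lines given the MALT1 inhibitor compound 3 at 100 nM or 1 of 2 hairpins against MALT1, and they serve here only to see whether the differences between the lines are also found in treated cells. Each line is a single line with its own history, so a difference belongs to these cultures and not to a subtype. Nothing in the labels says that replicates were grown as separate cultures. The p-values therefore rest on a spread between samples that may be only technical.

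MALT1 is a protease that acts in the signalling of B cells. It helps to carry the signal of the B cell receptor to the transcription factor NF-kB, on which lymphomas of this subtype often depend. The files number their 23250 gene models, called rows here, and do not pair the numbers with gene names. No level of a named gene, B cell marker or MALT1 is given for that reason, and no sequence is printed. At most 2 rows in each direction are given by number, so that they can be found again in the deposited values.

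The values are CPM, the reads of a row scaled to the authors' total for the library. The DMSO libraries held 23.3 to 31.4 M reads in the rows and the hairpin libraries 16.4 to 19.3 M. A value of 3 reads, the limit that a count of 0 allows, stood for 0.0760 to 0.0930 CPM with DMSO and for 0.124 to 0.136 CPM with the hairpin, for counting error only. Of the rows, 12570 reached 1 CPM in at least 3 of the 18 libraries and were tested. The principal component with most variance, 69.0%, put the 9 OCI-Ly3 libraries on one side and the 9 TMD8 libraries on the other, and the next, with 16.2%, set the hairpin libraries apart from the DMSO libraries. A pair of libraries stood apart from their replicates. OCI-Ly3 non-targeting replicate 1 lay over 1 log2 unit from the mean of its 2 replicates in 1159 rows, and TMD8 DMSO 8 h replicate 1 did so in 542 rows. The 3 TMD8 non-targeting libraries did so in 0 rows each and the other 13 libraries in 17 to 171 rows. Counts without the libraries that stand apart are given beside the results they touch.

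**Figure D1:**
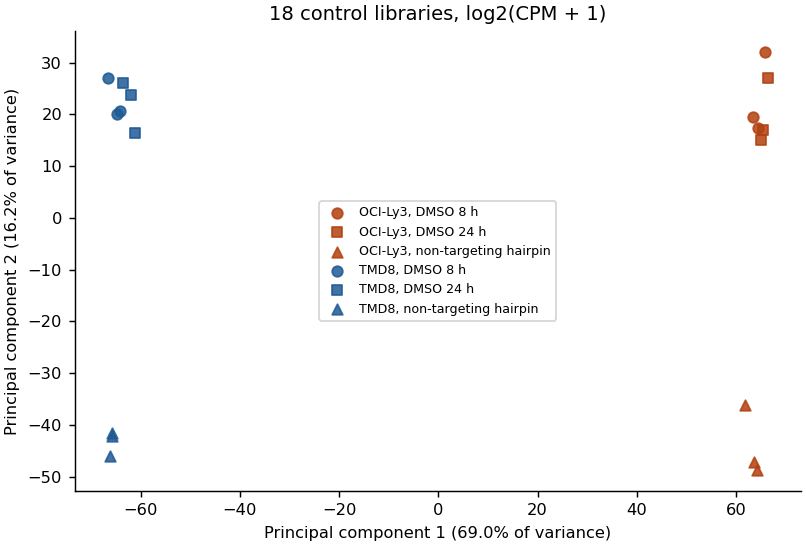
Scores of the 18 control libraries on the principal components 1 and 2 of log2(CPM + 1), 1 point per library, coloured by line and shaped by setting. Component 1 (69.0% of the variance) separates the lines, and component 2 (16.2%) separates the hairpin libraries from the DMSO libraries.

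The line accounted for most of the variation. Over all rows tested, 69.0% of the sum of squares of log2(CPM + 1) lay between the lines, 18.9% between the settings, 2.75% in the interaction of line and setting, and 9.44% between replicates. The line was the largest of these parts in 6671 rows (53.1%) and the setting in 3157 rows (25.1%). The interaction was the largest part in 83 rows. The 12 DMSO libraries and the 6 hairpin libraries belong to 2 experiments, so the part of the settings cannot be told apart from a difference between the experiments. The lines were therefore compared inside each setting.

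OCI-Ly3 and TMD8 differed in about as many rows in each setting. A row is called where limma gave a two-sided Benjamini-Hochberg adjusted p below 0.05, and differences are OCI-Ly3 minus TMD8 in log2(CPM + 1), which understates changes of weakly expressed rows. With DMSO for 8 h, 3429 rows were higher (27.3% of those tested) and 2898 lower (23.1%) in OCI-Ly3, together 50.3%. With DMSO for 24 h, 3683 were higher (29.3%) and 3406 lower (27.1%), together 56.4%. With the non-targeting hairpin, 3779 were higher (30.1%) and 3333 lower (26.5%), together 56.6%. The median size of the difference over all rows was 0.51 log2 units at 8 h, 0.49 at 24 h and 0.48 with the hairpin, and the 90th percentile was 1.77, 1.70 and 1.75. Without TMD8 DMSO 8 h replicate 1, the 8 h count was 6279 in place of 6327. Without OCI-Ly3 non-targeting replicate 1, the hairpin count was 9554 in place of 7112.

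The balance between higher and lower rows rested in part on the scale. The authors' total includes reads outside the rows, and of this total 77.5% ± 1.4 lay in the rows in OCI-Ly3 and 74.4% ± 1.3 in TMD8 (SD, n = 9 each). Within settings OCI-Ly3 was higher by 3.10 percentage points (exact permutation test within settings, two-sided p = 0.0005, adjusted p = 0.0015 over 3 library values). The median row was higher in OCI-Ly3 by 0.08, 0.04 and 0.04 log2 units at 8 h, at 24 h and with the hairpin, and by 0.02, 0.01 and 0.00 after median-ratio rescaling. With DMSO for 8 h, where 54.2% of the called rows were higher in OCI-Ly3, quantile normalization gave 3187 rows higher and 3296 lower. Median-ratio rescaling left more rows lower than higher at 24 h, 3570 against 3513, and with the hairpin, 3571 against 3504. In each setting the other rescaling kept more rows higher. Median-ratio rescaling gave 3259 rows higher and 3175 lower at 8 h. Quantile normalization gave 3623 higher and 3464 lower at 24 h, and 3631 and 3496 with the hairpin. Without TMD8 DMSO 8 h replicate 1 and without rescaling, the 8 h counts were 3214 and 3065. The lines thus differed in many rows in each direction, and which direction held more rows depends on which scaling is used.

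OCI-Ly3 libraries had 11457 ± 176 rows at 1 CPM or more, and TMD8 libraries had 11382 ± 92 (SD, n = 9 each; exact permutation test within settings, two-sided p = 0.0995, adjusted p = 0.149). The 100 most abundant rows held 18.4% ± 1.2 of the CPM in the rows in OCI-Ly3 and 19.0% ± 1.9 in TMD8 (SD, n = 9 each; exact permutation p = 0.351, adjusted p = 0.351). These p-values do not show that the lines are alike in either value. The same row was the most abundant in both lines, at 6493 ± 1478 CPM in OCI-Ly3 and 4857 ± 1051 CPM in TMD8 (SD, n = 9 each, over the 3 settings). Of the 100 most abundant rows of each line by the mean of its 9 libraries, 76 were shared. Of the 124 rows in either list, 18 were called higher and 22 lower in OCI-Ly3 in all 3 settings. Among all rows tested, 20.1% were called higher and 17.6% lower in all 3 settings, and no test was made of the 124.

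Since small differences were common, each row was also tested against a fold of 2 with limma's treat test. With DMSO for 8 h, 781 rows were higher (6.21% of those tested) and 667 lower (5.31%) in OCI-Ly3 by over 2-fold, together 11.5%. At 24 h, 774 were higher (6.16%) and 780 lower (6.21%), together 12.4%. With the hairpin, 699 were higher (5.56%) and 771 lower (6.13%), together 11.7%, and the counts were 1165 and 997 without OCI-Ly3 non-targeting replicate 1. The rows past this test differed by a wide margin, with medians of 2.17 to 2.34 log2 units for the higher rows and -2.22 to -2.37 for the lower rows over the 3 settings. The edgeR count test called more rows by over 2-fold, 2437 at 8 h, 2564 at 24 h and 2311 with the hairpin.

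**Figure D2:**
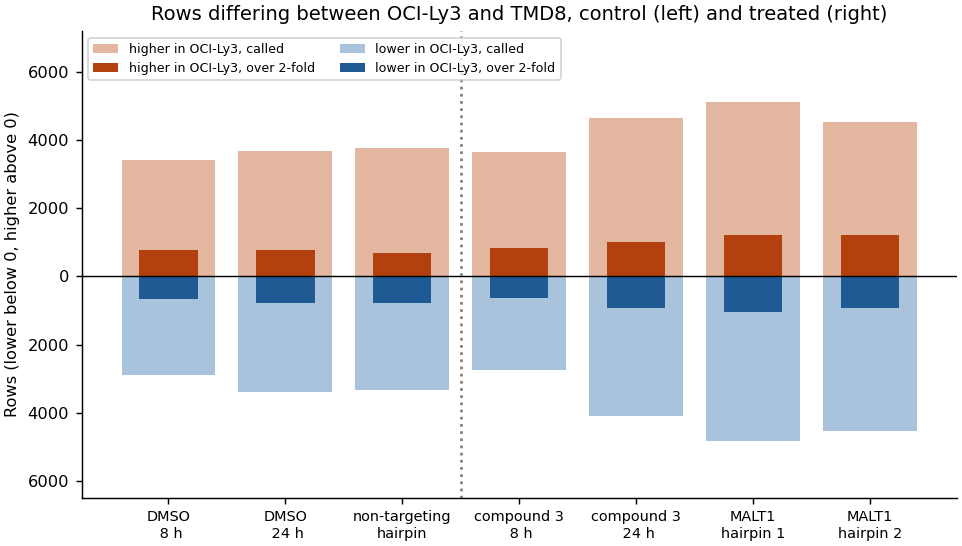
Number of rows called higher in OCI-Ly3 (above 0) and lower (below 0) in the 3 control settings, left of the dotted line, and in 4 treated settings, right of it. Wide pale bars are rows called at any size and narrow dark bars rows called by over 2-fold. Called rows number 6327 to 7112 in the control settings and 6391 to 9978 in the treated settings.

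The settings share no library and no estimate of the spread, and the rows they called are set side by side here. All 3 called 2525 rows higher (20.1% of those tested) and 2210 lower (17.6%) in OCI-Ly3, together 37.7%. Without both libraries that stand apart these counts were 2711 and 2480. By over 2-fold, 507 rows were higher (4.03%) and 491 lower (3.91%) in all 3 settings, together 7.94%, and 603 and 549 without those libraries. Both DMSO times shared 2945 of the higher rows, 85.9% of the 8 h list and 80.0% of the 24 h list. DMSO at 24 h and the hairpin shared 2952 of the higher rows, 80.2% of the 24 h list and 78.1% of the hairpin list. Of the lower rows, they shared 2666, 78.3% of the 24 h list and 80.0% of the hairpin list. In 3578 rows no setting called a difference.

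Across the 12570 rows, the differences at 8 h and at 24 h had a Pearson correlation of 0.959, with 88.0% of the rows on the same side of 0. The differences at 8 h and with the hairpin correlated at 0.929, and those at 24 h and with the hairpin at 0.943. Rows of a library are not independent, so these correlations are a description with no test. The difference between the lines changed by over 1 log2 unit in 193 rows between 8 h and 24 h, in 495 rows between 8 h and the hairpin, and in 334 rows between 24 h and the hairpin.

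**Figure D3:**
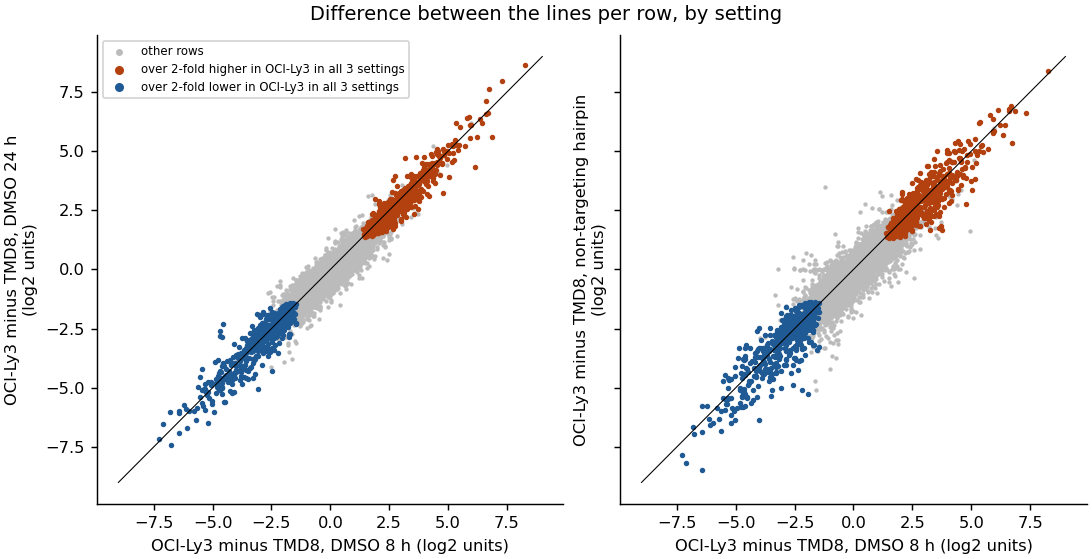
Difference OCI-Ly3 minus TMD8 per row in log2 units, with DMSO for 8 h on both horizontal axes and DMSO for 24 h (left) or the non-targeting hairpin (right) on the vertical axes. The line marks equal differences. The 507 rows over 2-fold higher (orange) and 491 over 2-fold lower (blue) in all 3 settings run along it, with more scatter against the hairpin setting.

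Rows with a bounded difference could be told from rows that were only not called. On the log2(CPM + 1) scale, weakly expressed rows can lie inside these bounds although their ratio is large. In 5296 rows (42.1%) the 95% interval of the difference lay inside 1 log2 unit on either side of 0 in all 3 settings. In 506 rows (4.03%) it lay inside 0.5 log2 units. Of the 5296, 315 were called in all 3 settings in 1 direction, so their differences kept their direction and were bounded on this scale.

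The 998 rows over 2-fold in all settings made up a set of about equal size in each direction. The 507 higher rows had a median difference of 2.65 log2 units over the mean of the settings, with quartiles of 2.05 and 3.49, and the 491 lower rows a median of -2.68, with quartiles of -3.77 and -2.17. A mean difference of over 4 log2 units, or 16-fold, was seen in 83 of the higher and 106 of the lower rows. All 507 higher rows and 488 of the 491 lower rows had no overlap between the 9 OCI-Ly3 and the 9 TMD8 libraries. Among all rows tested, 16% lay wholly higher and 13.9% wholly lower in OCI-Ly3, together 29.9%. That share is a description, since the rows were picked for differing in these libraries.

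The share of these rows differed with the level. The rows tested were split by their mean CPM over the 18 libraries into 5 classes of 2514 rows each. In the class with means of 4.15 to 14.9 CPM, 13.2% of the rows were over 2-fold in all 3 settings, and 8.27% were in the class below it. In the classes with means of 33.8 to 73.6 CPM and of 73.6 CPM and more, 5.37% and 5.53% were. The rows called at any size were spread more evenly, from 41.7% in the class with the lowest means to 34.8% and 35.4% in the 2 classes with the highest. Of the 124 most abundant rows above, 4 were over 2-fold higher and 3 over 2-fold lower in all settings. Among all rows tested these shares were 4.03% and 3.91%.

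The 507 rows were 4.03% of those tested and the 491 rows 3.91%. In the line that was high in them, they held a similar or somewhat larger share of the CPM. With DMSO for 8 h, the 507 rows held 4.77%, 4.40% and 4.42% of the CPM in the rows in the 3 OCI-Ly3 libraries, and 0.688%, 0.727% and 0.719% in the 3 TMD8 libraries. With the hairpin they held 4.23%, 4.78% and 4.78% in OCI-Ly3, and 0.758%, 0.760% and 0.769% in TMD8. The 491 rows held 0.736%, 0.800% and 0.811% in OCI-Ly3 with the hairpin, and 4.93%, 4.92% and 5.07% in TMD8. The rows were picked for differing in these libraries, so the gap between the lines in these shares is fixed by that choice and is a description only. At 24 h the 507 rows held 3.94%, 3.99% and 4.08% in OCI-Ly3, and 0.633%, 0.676% and 0.658% in TMD8. The 491 rows held 0.670% ± 0.041 in OCI-Ly3 and 4.41% ± 0.11 in TMD8 at 24 h (SD, n = 3 each).

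Some of these rows were close to silent in one line, and others were read in both. Of the 507 rows higher in OCI-Ly3, 223 (44.0%) stayed below 1 CPM in all 9 TMD8 libraries, and 198 (39.1%) had at least 1 CPM in all 18 libraries. Of the 491 rows lower in OCI-Ly3, 183 (37.3%) stayed below 1 CPM in all 9 OCI-Ly3 libraries, and 202 (41.1%) had at least 1 CPM in all 18. The median row of the 507 held 20.8 CPM in OCI-Ly3 and 0.969 CPM in TMD8. The median row of the 491 held 1.18 CPM in OCI-Ly3 and 27.4 CPM in TMD8.

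Rows with no read at all in one line were rarer and not balanced. At least 1 CPM in all 9 OCI-Ly3 libraries and 0 reads in all 9 TMD8 libraries was found in 26 rows, and the reverse in 2 rows. The most abundant of the 26 averaged 23.1 CPM in OCI-Ly3, which is at least 170-fold higher than 3 reads in the shallowest TMD8 library. Below 0.1 CPM in every library of one line and at least 1 CPM in every library of the other were 107 rows on in OCI-Ly3 and 50 rows on in TMD8. A count of 0 depends on depth, and TMD8 libraries tended to hold fewer reads in the rows. With DMSO they held 23.3 to 27.8 M and OCI-Ly3 libraries 26.4 to 31.4 M. With the hairpin these ranges were 16.4 to 17.4 M and 17.6 to 19.3 M. A single read in any 1 library also removes a row from the lists with 0 reads. No test was made of these row counts.

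Row 19185 had the largest difference in favour of OCI-Ly3 by the rule that takes the smallest of the 3 differences. In OCI-Ly3 it held 472, 414 and 446 CPM with DMSO for 8 h, 434, 443 and 449 CPM at 24 h, and 339, 510 and 513 CPM with the hairpin. In TMD8 it held 0.217, 1.03 and 0.181 CPM at 8 h, 0.166, 0.111 and 0.0269 CPM at 24 h, and 0.0894, 0.181 and 0.861 CPM with the hairpin. The groups lay far apart in every setting, and the TMD8 values rest on 1 to 38 reads a library. The differences were 8.28 (SE 0.22), 8.65 (SE 0.13) and 8.38 (SE 0.27) log2 units at 8 h, at 24 h and with the hairpin, with limma adjusted p of 9.84e-08, 3.36e-10 and 5.89e-06. These sizes are set in part by the pseudocount of 1 CPM, since all but 1 of the TMD8 values lie below it. With a pseudocount of 0.25 they were 9.45, 10.32 and 9.68, and edgeR gave 9.76, 12.03 and 10.14. On the log2(CPM + 1) scale the difference did not change past the threshold with time (0.37, 95% interval -0.28 to 1.03; limma adjusted p = 0.824) or between hairpin and DMSO (-0.08, 95% interval -0.65 to 0.48; limma adjusted p = 0.964).

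Row 15015 led the rows higher in OCI-Ly3 that were read in every library of both lines. In OCI-Ly3 it held 641, 532 and 770 CPM with DMSO for 8 h, 469, 460 and 597 CPM at 24 h, and 1238, 1013 and 1009 CPM with the hairpin. In TMD8 it held 2.60, 12.3 and 12.6 CPM at 8 h, 5.16, 14.0 and 11.7 CPM at 24 h, and 15.3, 15.3 and 13.9 CPM with the hairpin. The lowest TMD8 value is that of the 8 h library that stands apart. The means differed 70.8-fold at 8 h, 49.5-fold at 24 h and 73.4-fold with the hairpin. Both lines had a higher mean with the hairpin than at either DMSO time, which was not tested. In TMD8 the single values overlapped, at 13.9 CPM in a hairpin library and 14.0 CPM in a 24 h library. The log2 differences were 6.21 (SE 0.46), 5.58 (SE 0.29) and 6.10 (SE 0.10), with limma adjusted p of 8.16e-06, 1.40e-07 and 1.63e-06, and the 8 h value was 5.58 without the library that stands apart.

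Row 11928 had the largest difference in favour of TMD8 by the same rule. In OCI-Ly3 it held 1.21, 0.360 and 0.601 CPM with DMSO for 8 h, 0.482, 0.283 and 0.634 CPM at 24 h, and 2.39, 0.288 and 0.532 CPM with the hairpin. In TMD8 it held 252, 293 and 247 CPM at 8 h, 184, 254 and 202 CPM at 24 h, and 428, 419 and 432 CPM with the hairpin. The groups did not overlap, and the highest OCI-Ly3 value is that of the non-targeting library that stands apart. The log2 differences were -7.29 (SE 0.20), -7.18 (SE 0.17) and -7.83 (SE 0.36), with limma adjusted p of 9.84e-08, 3.04e-09 and 2.07e-05, and the hairpin value was -8.25 without that library.

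Row 4436 led the rows lower in OCI-Ly3 that were read in every library. In OCI-Ly3 it held 2.75, 2.66 and 1.62 CPM with DMSO for 8 h, 2.51, 1.95 and 2.10 CPM at 24 h, and 2.65, 2.10 and 2.13 CPM with the hairpin. In TMD8 it held 82.4, 170 and 196 CPM at 8 h, 188, 139 and 192 CPM at 24 h, and 162, 162 and 176 CPM with the hairpin. Its OCI-Ly3 level stayed between 1.62 and 2.75 CPM in all 9 libraries, and the one low TMD8 value is again that of the 8 h library that stands apart. The log2 differences were -5.42 (SE 0.32), -5.76 (SE 0.16) and -5.68 (SE 0.10), with limma adjusted p of 2.12e-06, 5.44e-09 and 1.63e-06.

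**Figure D4:**
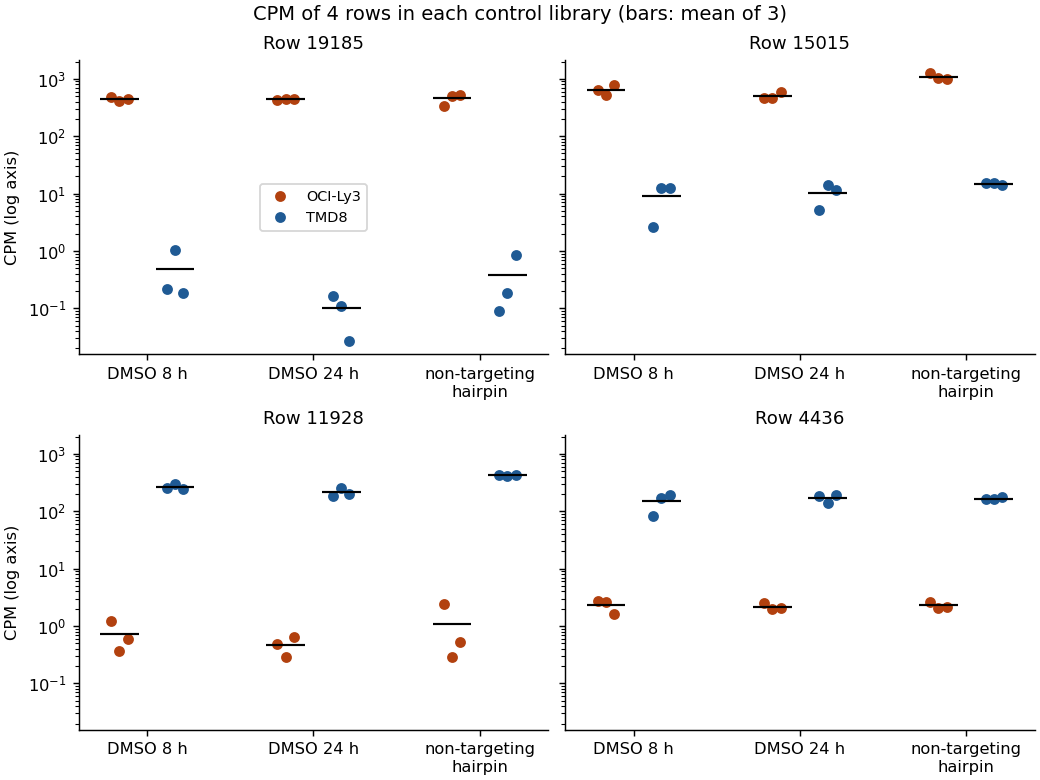
CPM on a log axis of rows 19185, 15015, 11928 and 4436 in each control library, OCI-Ly3 (orange) left of TMD8 (blue) in each setting, with bars at the mean of 3 libraries. No row has a library of one line inside the range of the other, and row 19185 lies between 0.0269 and 1.03 CPM in TMD8.

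The 20 rows in favour of OCI-Ly3 that ranked highest by the smallest of their 3 differences, whatever their level, averaged 41.3 to 748 CPM in OCI-Ly3. In TMD8 they averaged 0.00301 to 11.4 CPM. The 20 in favour of TMD8 averaged 0.0699 to 2.88 CPM in OCI-Ly3 and 44.4 to 458 CPM in TMD8. Among rows read in all 18 libraries, the 20 leading rows of each direction had a smallest difference of at least 3.13 log2 units when higher and 3.30 when lower in OCI-Ly3. In a median row of these 4 lists the largest and smallest of the 3 differences lay 0.44 to 0.73 log2 units apart, and in the least steady row 2.28 units apart. By the test of change given below, 3 higher and 5 lower rows of the any-level lists changed between hairpin and DMSO. In the lists read in all 18 libraries 1 higher and 2 lower rows did, against 3.76% of all rows tested. A change with time was called in 1 lower any-level row and 1 higher row read in all 18.

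Whether a difference between the lines itself changed with the setting was tested in 1 model of the 18 libraries. The difference at 24 h was unlike that at 8 h in 27 rows (0.215% of those tested; limma adjusted p below 0.05), 8 (0.0636%) with a higher and 19 (0.151%) with a lower value for OCI-Ly3 relative to TMD8 at 24 h. With the replicate number as a block, limma called 2 rows, 0 higher and 2 lower. At an unadjusted p below 0.05 there were 1094 rows, where rows with no change would give 628.5. edgeR called 6 rows and DESeq2 called 66. The count moved with nearly every choice: leaving out 1 library gave 3 to 16 rows, apart from 20 without OCI-Ly3 DMSO 8 h replicate 3, 46 without TMD8 DMSO 8 h replicate 2 and 64 without OCI-Ly3 non-targeting replicate 1. Their median level was 5.10 CPM, where the median of all rows tested was 23.1 CPM.

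The largest of these changes belonged to a row that stayed below 0.5 CPM in the 9 OCI-Ly3 control libraries, described without its number and chosen after its values were seen. In OCI-Ly3 it held 0.404, 0.444 and 0.261 CPM at 8 h and 0.253, 0.312 and 0.259 CPM at 24 h. In TMD8 it held 52.8, 16.6 and 34.3 CPM at 8 h and 7.43, 4.82 and 4.24 CPM at 24 h. Only the TMD8 values moved by more than their spread, and the difference shrank to -2.32 log2 units at 24 h, against -4.56 at 8 h, a change of 2.24 (SE 0.39; limma adjusted p = 0.0455). This change was not called with the replicate block, where no row had a higher value. The non-targeting libraries, whose time in culture the labels do not give, had a difference of -4.16. In treated cells the row averaged 0.511 ± 0.13, 1.13 ± 0.57, 0.562 ± 0.22 and 7.78 ± 2.2 CPM in OCI-Ly3 with compound 3 at 8 h, at 24 h and with hairpins 1 and 2, and 41.9 ± 17.3, 5.77 ± 0.65, 16.8 ± 0.92 and 49.9 ± 2.9 CPM in TMD8 (SD, n = 3 each).

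More rows changed between the experiments. The difference with the hairpin was unlike the mean of both DMSO times in 473 rows (3.76% of those tested; limma adjusted p below 0.05), 172 (1.37%) with a higher and 301 (2.39%) with a lower value for OCI-Ly3 relative to TMD8 with the hairpin. Of these, 268 changed by over 1 log2 unit. The level moved more in OCI-Ly3 in 208 of them and more in TMD8 in 265. The median level of the 473 rows was 3.97 CPM. The split rests on 1 library: without OCI-Ly3 non-targeting replicate 1, 437 rows had a higher and 447 a lower value, and without both libraries that stand apart 579 had a higher and 511 a lower value. These totals were 884 and 1090. The total was 310 without TMD8 non-targeting replicate 3, edgeR called 238 and DESeq2 called 423. The lentivirus, the depth and the experiment all differ between these settings and cannot be told apart.

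Most rows past 2-fold in the hairpin setting alone did not pass this test. Of 268 such rows, 264 had the same sign in all 3 settings and 82 had a called change between hairpin and DMSO. A further 143 rows were past 2-fold with DMSO at 8 h alone and 171 at 24 h alone, of which 137 and 167 had the same sign throughout.

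A turn of direction was rare. Some pair of settings called a row in opposite directions in 46 rows (0.366% of those tested), and by over 2-fold in 1 row. In 19 rows both DMSO times called one direction and the hairpin the other, 11 of them higher and 8 lower in OCI-Ly3 with DMSO, and all 19 had a called change between hairpin and DMSO. The row with the clearest turn is described without its number and was chosen after its values were seen. With DMSO for 8 h it held 58.8, 36.8 and 21.8 CPM in OCI-Ly3, and 63.8, 66.4 and 141 CPM in TMD8. At 24 h it held 19.3, 11.1 and 13.5 CPM in OCI-Ly3, and 45.0, 61.8 and 113 CPM in TMD8. With the hairpin it held 19.97, 32.1 and 33.8 CPM in OCI-Ly3, and 1.21, 1.77 and 1.94 CPM in TMD8. OCI-Ly3 kept its range while every TMD8 hairpin library lay far below every TMD8 DMSO library. The differences were -1.20, -2.18 and 3.47 log2 units, and the change between hairpin and DMSO was 5.15 (SE 0.46; limma adjusted p = 2.45e-06). The same row behaved alike in the treated cells, with differences of -1.07 and -2.15 with compound 3 at 8 h and 24 h and of 4.13 and 4.80 with MALT1 hairpins 1 and 2.

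The treated cells give the same comparison in 24 libraries that no control comparison used. The labels do not say whether treated and control libraries came from shared cultures, so agreement between them is not an independent check. With compound 3 for 8 h, 50.8% of the rows tested were called between the lines, with compound 3 for 24 h 69.7%, with MALT1 hairpin 1 79.4% and with MALT1 hairpin 2 72.2%. By over 2-fold, 11.7%, 15.4%, 17.8% and 17% were called, in the same order. The number of calls also depends on the spread between replicates, so these shares do not show that treatment moved the lines apart. The median absolute difference over all rows was 0.54, 0.48, 0.48 and 0.55 log2 units, close to the 0.48 to 0.51 of the controls.

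The rows over 2-fold in all control settings kept their direction under treatment. All 507 higher rows had the same sign and were called in the same direction in each of the 4 treated settings, where 29%, 37%, 40.8% and 36% of all rows were called higher with compound 3 at 8 h, at 24 h and with hairpins 1 and 2. They were past 2-fold in 491, 503, 494 and 468 cases, against 6.63%, 8.11%, 9.59% and 9.75% of all rows. Of the 491 lower rows, 491, 488, 491 and 490 were called lower, where 21.9%, 32.7%, 38.6% and 36.1% of all rows were. They were past 2-fold in 465, 480, 481 and 446 cases, against 5.09%, 7.31%, 8.22% and 7.29% of all rows. One of them, with compound 3 at 24 h, had the opposite sign and was not called.

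The sizes also held under treatment. The median of the 507 rows was 2.75 and 2.64 log2 units with compound 3 at 8 h and 24 h, and 2.77 and 2.84 with hairpins 1 and 2, against 2.60 to 2.70 in the controls. The median of the 491 rows was -2.60, -2.63, -2.65 and -2.51, against -2.69 to -2.78 in the controls. In all 7 settings, 454 rows were over 2-fold higher and 420 over 2-fold lower in OCI-Ly3.

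**Figure D5:**
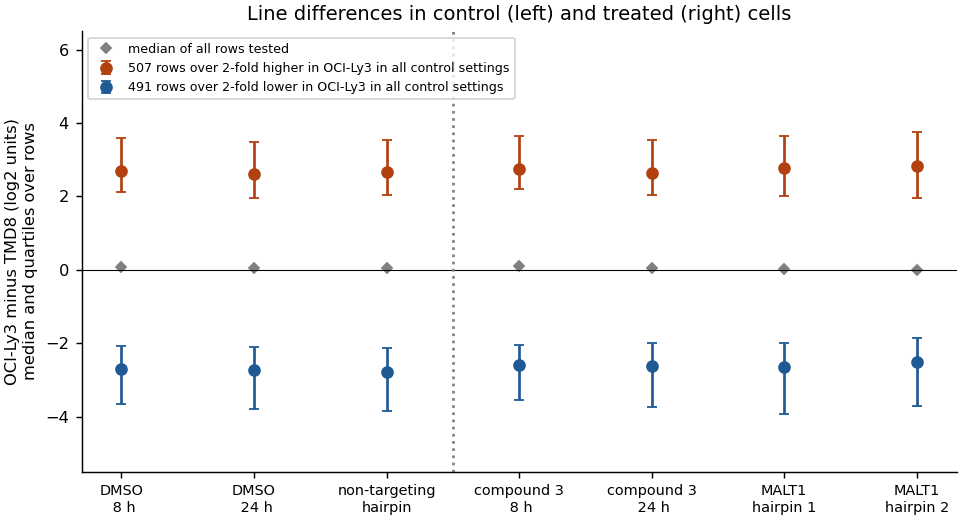
Median and quartiles over rows of the difference OCI-Ly3 minus TMD8 (log2 units) for the 507 rows over 2-fold higher (orange) and the 491 over 2-fold lower (blue) in all 3 control settings, with the median of all rows tested in grey. The control settings are left of the dotted line and the treated settings right of it. The medians stay between 2.60 and 2.84 and between -2.51 and -2.78.

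Of the 2525 rows called higher in all control settings at any size, 2368, 2496, 2459 and 2190 were called higher with compound 3 at 8 h, at 24 h and with hairpins 1 and 2. In the opposite direction 0, 1, 2 and 61 were called. Of the 2210 rows called lower, 2011, 2175, 2170 and 1995 were called lower and 0, 5, 4 and 35 higher. Whether the difference in a row changed between control and treated cells was not tested here.

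The rows given by number were called in the same direction in all 4 treated settings, and their sizes varied. Row 19185 averaged 437 ± 25, 445 ± 25, 596 ± 16 and 607 ± 30 CPM in OCI-Ly3 with compound 3 at 8 h, at 24 h and with hairpins 1 and 2, and 0.139 ± 0.192, 0.315 ± 0.177, 0.119 ± 0.097 and 0.207 ± 0.082 CPM in TMD8 (SD, n = 3 each). Row 4436 averaged 3.24 ± 1.6, 2.95 ± 0.73, 2.39 ± 0.29 and 3.54 ± 0.24 CPM in OCI-Ly3, and 175 ± 82, 185 ± 17, 183 ± 5.8 and 157 ± 9.0 CPM in TMD8. For row 15015 the ratio of the OCI-Ly3 mean to the TMD8 mean was 84.9, 36.1, 77.6 and 88.0 in the same order, against 49.5 to 73.4 in the controls. Row 11928 had a difference of -6.52 (SE 0.46) with compound 3 at 8 h, where OCI-Ly3 averaged 2.08 ± 2.61 CPM and TMD8 226 ± 38 CPM (SD, n = 3 each). Its other treated differences were -7.19, -8.09 and -7.84. The limma adjusted p of these 16 differences was at most 3.92e-06.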

How the data were processed

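RNA of control OCI-Ly3 and TMD8 cells was sequenced from stranded mRNA libraries, per the labels' protocols. STAR and the build hg19 are named in the submitters' processing notes. How reads were counted, and whether by strand, is not stated in those sources. The authors deposited CPM, with 1 file for each library. Each CPM was a whole multiple of its library's smallest value (100% within 1e-06), which recovers whole reads. The row order was assumed equal in the DMSO and hairpin experiments. Overlapping genes and near-identical copies could not be set apart. No 2 files were identical, and every library was counted as a sample. Chi-square over degrees of freedom for the 18 replicate pairs ran from 1.92 to 92.1. It was 1.92 for OCI-Ly3 non-targeting replicates 2 and 3, and 91.0 and 85.3 for the pairs with replicate 1. The TMD8 non-targeting pairs had 2.49, 5.99 and 4.08, and the DMSO pairs 14.1 to 92.1. The low values are closer to counting error alone, so whether those hairpin libraries are separate cultures cannot be told.

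Lines were compared with limma 3.58.1 (R 4.3.3) on log2(CPM + 1), fitted on the 6 libraries of each setting, with eBayes and a mean-variance trend, Benjamini-Hochberg adjustment over the 12570 rows that reached 1 CPM in 3 or more of the 18 control libraries, and limma treat against 1 log2 unit. edgeR 4.0.16 and DESeq2 1.42.0 ran on the recovered reads as alternatives, since the unit is CPM. Library values were compared by exact permutation of the line labels within settings (8000 arrangements).

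Deviations of same-numbered OCI-Ly3 and TMD8 libraries had correlations of 0.327, 0.445 and 0.125 at 24 h. There only replicate 2 was closest to its own number in both lines. At 8 h and with the hairpin the correlations did not all pass 0.1. Whether the numbers pair the samples is therefore not settled. The main fits have no replicate block, and at 24 h they called 7089 rows, against 7928 with it. The rows given by number are, in each direction, the row called in all settings with the largest smallest difference, at any level and among rows at 1 CPM or more in all 18 libraries. The comparison, rows and lists were chosen with earlier results of these data known. Cell type markers could not be read.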

Additional observations from a re-analysis of the deposited data

Results flagged for a closer look

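The difference between OCI-Ly3 and TMD8 changed between DMSO at 24 h and at 8 h in 27 rows by its own test. The largest of these changes, in a row below 0.5 CPM in the OCI-Ly3 control libraries, was 2.24 log2 units. Between the non-targeting hairpin and DMSO it changed in 473 rows. The largest of those changes was 5.15 log2 units, in the row whose direction turned. Groups of 3 libraries are too small to look for single outlying values.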

How the results depend on the processing

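The 4 rows given by number kept their direction and their call in all 192 fits under other settings. They were picked for large differences in these same libraries, so this is a description and no support for them. Some of the 192 fits are repeats. Leaving out both libraries that stand apart drops none at 24 h, and 1 at 8 h and with the hairpin. The counts of called rows in each setting and over all 3 stayed within 1.5 times their value without a filter (CPM above 0 in any of the 18 files), with a filter of 5 CPM, with a pseudocount of 0.25, with both rescalings, in 1 model of 18 libraries, with DESeq2 and with a replicate block. By over 2-fold the same held, except that edgeR called 2437 rows at 8 h, 2564 at 24 h, 2311 with the hairpin and 1739 in all 3 settings. Leaving out 1 library gave 5369 to 6279 rows at 8 h, 6328 to 6682 at 24 h, 5663 to 9554 with the hairpin and 4224 to 5185 in all 3, and by over 2-fold 1256 to 1437, 1404 to 1488, 1145 to 2162 and 854 to 1155.

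The 27 rows whose difference changed with time became 48 without a filter, 12 with a pseudocount of 0.25, 2 with the filter of 5 CPM, 2 with a replicate block, 6 with edgeR, 66 with DESeq2, 57 without both libraries that stand apart (chosen after seeing the data) and 3 to 64 without 1 library. The 473 rows that changed between hairpin and DMSO became 268 with the filter of 5 CPM, 238 with edgeR, 1090 without both libraries that stand apart and 310 to 884 without 1 library. The cause was not tested.

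With a replicate block the counts were 6724 at 8 h, 7928 at 24 h and 6666 with the hairpin. Apart from the 2 rows that changed with time, it moved no count by over 1.5 times. The correlations of same-numbered libraries were 0.275, 0.0853 and 0.201 at 8 h and 0.203, -0.132 and 0.258 with the hairpin. In none of the 3 control settings was every sample closest to its own number. With compound 3 at 8 h every sample was (0.330, 0.467 and 0.376), and the block gave 7488 called rows, against 6391 without it. In the treated settings leaving out 1 library gave 5433 to 6101, 8042 to 8658, 9544 to 9914 and 8204 to 8796 called rows, with compound 3 at 8 h, at 24 h and with hairpins 1 and 2. At these depths rows under about 0.1 CPM rest on a few reads.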

Other observations

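Neighbouring rows of the files did not share their difference between the lines. Over 7676 pairs of adjacent rows that were both tested, the mean differences had a correlation of -0.0036, a description across rows with no test. What orders the rows is not given in the sources used here.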
